A study of Homo sapiens with 9 samples.

Results

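The transcripts of 9 citric acid cycle enzymes were followed: CS, IDH2, IDH3A, OGDH, SUCLA2, SDHA, SDHB, FH and MDH2. They were chosen by name, as the rows of the deposited table that carry these gene symbols, and all 9 were found among 27407 features. The table holds RNA sequencing of 9 libraries of Weri-RB1/CRP, which the labels give as a retinoblastoma line resistant to carboplatin, in 3 groups of 3 libraries. All 9 libraries came from this line, kept in RPMI with fetal bovine serum. The groups were shNC, the control hairpin, and shSNHG1#1 and shSNHG1#2, short hairpin RNAs designed to lower SNHG1, a long noncoding RNA. No drug treatment is listed for any group. Whether a hairpin line is a pool of cells or 1 clone is not given in the sources used here. SNHG1 itself was not analysed here, so the extent of its knockdown is not part of these values.

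The citric acid cycle runs in the mitochondrial matrix. It oxidises acetyl groups to carbon dioxide, passes electrons to the respiratory chain through NADH and FADH2, and supplies carbon skeletons for amino acids, lipids and haem. CS joins acetyl-CoA to oxaloacetate. IDH3 and the oxoglutarate dehydrogenase complex carry out the oxidative decarboxylations, succinyl-CoA synthetase makes succinate, and succinate dehydrogenase, FH and MDH2 return succinate to oxaloacetate. IDH2 is a separate mitochondrial isocitrate dehydrogenase that uses NADP rather than NAD and can run in either direction.

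The libraries held between 21501953 and 21606375 counts. A single feature without a gene symbol took 6.57% to 7.09% of the counts in the shNC libraries, 12.2% to 13.5% in shSNHG1#1 and 11.8% to 12.1% in shSNHG1#2. Of the 13 photoreceptor markers in the table, 11 stayed below 1 FPKM in every library, among them CRX and RCVRN, with highest values of 0.03 and 0.09 FPKM. The other 2 were GNAT2, the cone transducin subunit, at 15.97 to 19.56 FPKM, and THRB, at 1.63 to 2.43. The summed level of the 13, most of it GNAT2, was 20.4 to 22.0 FPKM in shNC, 18.8 to 19.4 in shSNHG1#1 and 18.7 to 19.8 in shSNHG1#2. The 8 epithelial markers summed to 1637 to 1638, 1518 to 1611 and 1523 to 1614 FPKM, most of it KRT8 and KRT18. Their members differed in direction. CLDN4 (mean 4.07, 8.35 and 8.13 FPKM) and EPCAM (1.69, 3.3 and 3.22) were higher with both SNHG1 hairpins. KRT19 (59.8, 37.1 and 43.4) and CDH1 (27.4, 22.2 and 24.4) were lower, and CLDN7 and ESRP1 stayed below 1 FPKM in every library. CRX and RCVRN were thus near 0, against the label, while GNAT2 was not, and the cells are called here by label and hairpin. No label states that the replicates were cultured separately, and the p-values below then reflect only the spread between these libraries, which may be technical.

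Of the 9 enzymes, 8 were higher in shSNHG1#1 than in shNC and none was lower, and IDH2 was the enzyme that did not pass the test. The background was large: with this hairpin 48.1% of the 18767 features tested passed, 24.5% of all tested being higher and 23.5% lower. With shSNHG1#2, 8 enzymes were higher, none was lower and IDH2 again did not pass, against 46.2% of all features called, 23.3% higher and 22.8% lower. With counts scaled by library totals alone, 60.9% of all calls with shSNHG1#2 were higher, against 50.5% here. These calls use edgeR's quasi-likelihood test on the counts, with Benjamini-Hochberg adjustment over all features and an adjusted p below 0.05. The median log2 fold change of the 9 was 0.43 with shSNHG1#1 and 0.32 with shSNHG1#2, beside 0.02 and 0.01 over all features tested. For all 8 risen enzymes the 3 libraries of either hairpin lay above the 3 shNC libraries on the log2 CPM scale, an arrangement seen for 29% and 28.3% of all features, while 27.4% lay wholly below with either hairpin. Both comparisons use the same 3 shNC libraries and are not independent of each other. In bulk RNA, a change in the cells that hold a transcript and a change in the amount per cell cannot be told apart.

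**Figure D1:**
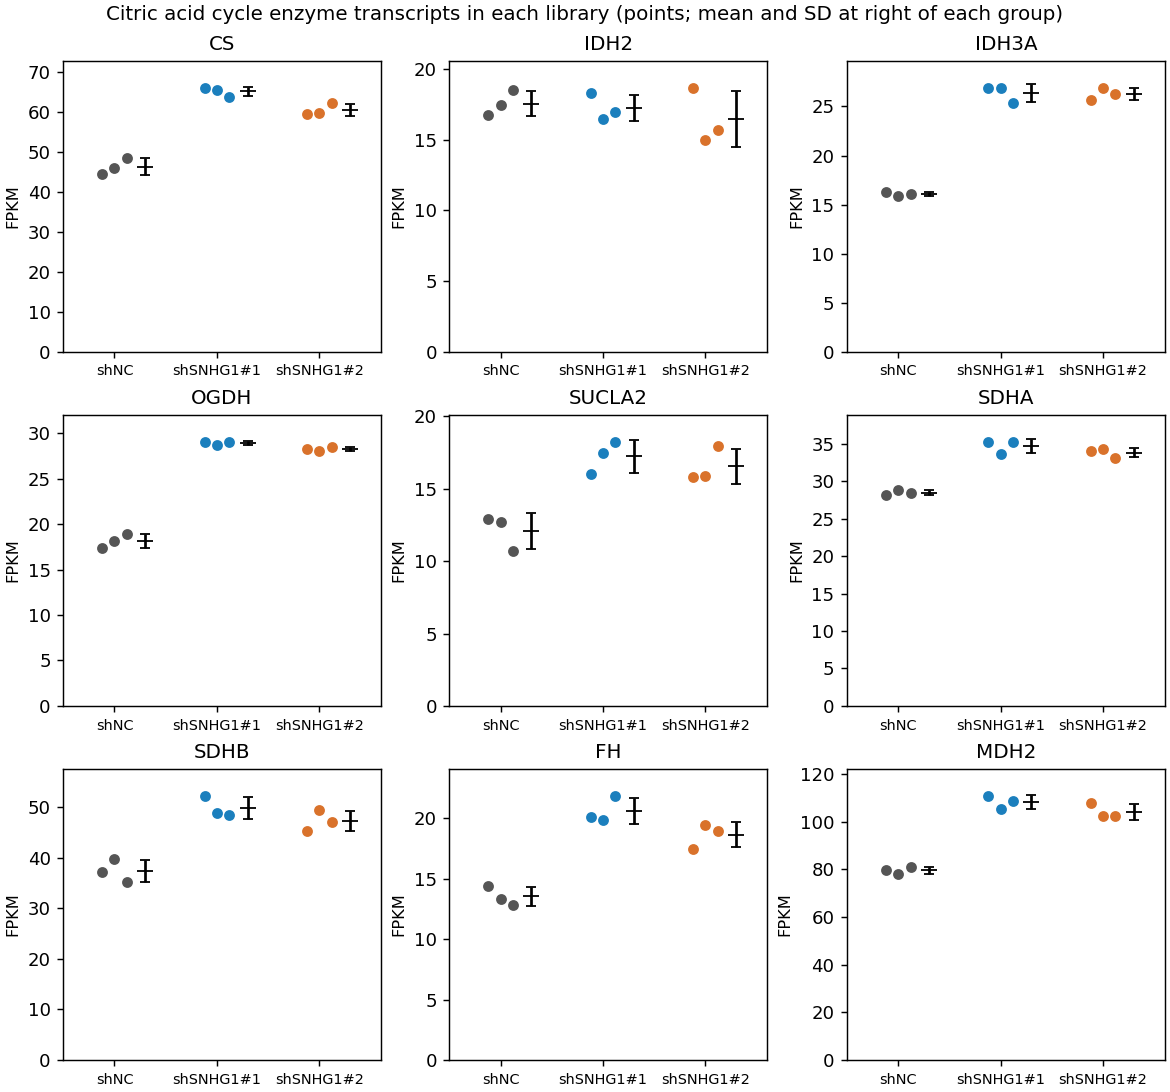
FPKM (vertical axis, linear from 0) of each of the 9 enzymes in each library, grouped by hairpin; points are libraries, and the dash and bars beside each group are its mean and SD (n = 3). For 8 enzymes all points of both SNHG1 hairpins lie above the shNC points, while the IDH2 groups overlap between 14.98 and 18.68 FPKM.

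CS (Entrez Gene 1431), citrate synthase, makes citrate and is often measured as an index of mitochondrial mass. It stood at 44.6, 45.9 and 48.55 FPKM in the shNC libraries, at 66.1, 65.5 and 63.8 in shSNHG1#1 and at 59.5, 59.7 and 62.2 in shSNHG1#2. FPKM, deposited by the authors, counts fragments for each kilobase of transcript after scaling to library size. The groups did not overlap, and the shSNHG1#1 libraries were the highest. The fold change, fitted to scaled counts and so not equal to the ratio of FPKM means, was 1.35 with shSNHG1#1 (log2 0.43, SE 0.03, adjusted p = 2e-06 by edgeR) and 1.23 with shSNHG1#2 (log2 0.30, SE 0.03, adjusted p = 3.4e-05).

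IDH3A (Entrez Gene 3419), the catalytic alpha subunit of the NAD-dependent isocitrate dehydrogenase, showed the largest rise among the 9. Its level was 16.3, 15.8 and 16.1 FPKM in shNC, 26.9, 26.9 and 25.3 in shSNHG1#1, and 25.6, 26.9 and 26.3 in shSNHG1#2. The shNC libraries lay together and far below the other 6, whose ranges overlapped each other. The fold was 1.56 with shSNHG1#1 (log2 0.64, SE 0.04, adjusted p = 1.3e-07 by edgeR) and 1.54 with shSNHG1#2 (log2 0.62, SE 0.04, adjusted p = 2.3e-07).

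IDH2 (Entrez Gene 3418), the NADP-dependent enzyme, did not follow the others. Its level was 16.7, 17.4 and 18.5 FPKM in shNC, 18.3, 16.5 and 16.9 in shSNHG1#1, and 18.7, 15.0 and 15.7 in shSNHG1#2. All 3 groups overlapped. The log2 fold change was 0.05 with shSNHG1#1 (95% interval -0.11 to 0.21, adjusted p = 0.61 by edgeR) and -0.06 with shSNHG1#2 (-0.23 to 0.10, adjusted p = 0.52). Those intervals lie below those of IDH3A with either hairpin, which run from 0.56 to 0.72 and from 0.54 to 0.70. The sign of the IDH2 estimate depends on the scale. With shSNHG1#1 it was -0.03 when limma was fitted to log2(FPKM + 1), and with shSNHG1#2 it was 4e-04 when counts were scaled by library totals alone. The transcript length implied by count, FPKM and library total was 1906 to 2062 bases in shNC, 2118 to 2214 in shSNHG1#1 and 2079 to 2179 in shSNHG1#2, so counts and FPKM of IDH2 are not on 1 fixed length, and whether isoform use differs was not tested.

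OGDH (Entrez Gene 4967) is the decarboxylating first component of the oxoglutarate dehydrogenase complex. Its level was 17.4, 18.1 and 18.9 FPKM in shNC, 29.1, 28.7 and 29.1 in shSNHG1#1, and 28.3, 28.1 and 28.55 in shSNHG1#2. No library of either SNHG1 hairpin came near the shNC range, and the 3 replicates of each hairpin lay within a narrow band. The fold was 1.54 with shSNHG1#1 (log2 0.63, SE 0.03, adjusted p = 5.8e-08 by edgeR) and 1.49 with shSNHG1#2 (log2 0.58, SE 0.03, adjusted p = 1.4e-07).

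SUCLA2 (Entrez Gene 8803) is the ADP-forming beta subunit of succinyl-CoA synthetase. It stood at 12.9, 12.7 and 10.7 FPKM in shNC, 16.0, 17.5 and 18.3 in shSNHG1#1, and 15.8, 15.9 and 18.0 in shSNHG1#2. Its replicates were among the most spread of the 9, yet the lowest library of either hairpin lay above the highest shNC library. The fold was 1.37 with shSNHG1#1 (log2 0.46, SE 0.08, adjusted p = 0.00053 by edgeR) and 1.31 with shSNHG1#2 (log2 0.39, SE 0.08, adjusted p = 0.0016).

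SDHA (Entrez Gene 6389) and SDHB (Entrez Gene 6390) are the flavoprotein and iron-sulphur subunits of succinate dehydrogenase, which is also complex II of the respiratory chain. SDHA stood at 28.1, 28.8 and 28.5 FPKM in shNC, 35.3, 33.6 and 35.3 in shSNHG1#1, and 34.0, 34.3 and 33.1 in shSNHG1#2. Its fold, the smallest of the 8 that rose, was 1.18 with shSNHG1#1 (log2 0.24, SE 0.03, adjusted p = 8.7e-05 by edgeR) and 1.12 with shSNHG1#2 (log2 0.17, SE 0.03, adjusted p = 0.0013). SDHA has near-identical pseudogenes, so its counts are uncertain where the authors' counting could split reads. Of these, SDHAP3 was lower with both hairpins, at 4.61 ± 1.38 FPKM in shNC, 2.63 ± 0.953 in shSNHG1#1 and 2.29 ± 0.595 in shSNHG1#2 (SD, n = 3; log2 fold changes -1.10 and -1.17, adjusted p = 0.00011 and 8.5e-05 by edgeR). SDHAP1 (log2 -0.20 and -0.18) and SDHAP2 (-0.10 and -0.12) did not pass, and SDHAP4 was not analysed here. With limma on log2(FPKM + 1) and log2(FPKM + 0.1), SDHAP3 lost its call with shSNHG1#1 (-0.635 and -0.812, adjusted p = 0.0696 and 0.0752), which left 0 pseudogenes called there. The count of pseudogenes called with shSNHG1#1 rose from 1 to 2 without shSNHG1#1 replicate 3 or shSNHG1#2 replicate 1 or 2, and with shSNHG1#2 without its replicate 2. By DESeq2 it was 2 with both hairpins. With shSNHG1#1 it was also 2 in a fit of 2 groups and with features without a symbol left out. SDHB stood at 37.2, 39.7 and 35.3 FPKM in shNC, 52.3, 48.8 and 48.4 in shSNHG1#1, and 45.3, 49.4 and 47.1 in shSNHG1#2. Its groups did not overlap with shNC, and its fold was 1.29 with shSNHG1#1 (log2 0.37, SE 0.05, adjusted p = 0.00018) and 1.21 with shSNHG1#2 (log2 0.27, SE 0.05, adjusted p = 0.0017).

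FH (Entrez Gene 2271), fumarate hydratase, turns fumarate into malate. It stood at 14.4, 13.4 and 12.9 FPKM in shNC, 20.2, 19.9 and 21.9 in shSNHG1#1, and 17.5, 19.4 and 19.0 in shSNHG1#2. All shSNHG1#1 libraries lay above all shSNHG1#2 libraries, and both above shNC. The fold was 1.47 with shSNHG1#1 (log2 0.56, SE 0.06, adjusted p = 2e-05 by edgeR) and 1.32 with shSNHG1#2 (log2 0.40, SE 0.06, adjusted p = 0.00027).

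MDH2 (Entrez Gene 4191), mitochondrial malate dehydrogenase, remakes oxaloacetate and was the most abundant of the 9 in every group. It stood at 79.8, 78.2 and 80.9 FPKM in shNC, 111.0, 105.4 and 108.7 in shSNHG1#1, and 108.1, 102.2 and 102.4 in shSNHG1#2. The lowest of the 6 libraries with an SNHG1 hairpin was above the highest shNC library. The fold was 1.32 with shSNHG1#1 (log2 0.40, SE 0.03, adjusted p = 3.1e-06 by edgeR) and 1.25 with shSNHG1#2 (log2 0.32, SE 0.03, adjusted p = 1.8e-05).

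In shNC the order of mean level per length was MDH2 (79.6 ± 1.37 FPKM), CS (46.4 ± 2.00), SDHB (37.4 ± 2.21), SDHA (28.5 ± 0.335), OGDH (18.1 ± 0.755), IDH2 (17.6 ± 0.902), IDH3A (16.1 ± 0.245), FH (13.5 ± 0.764) and SUCLA2 (12.1 ± 1.24; SD, n = 3). OGDH and IDH2 overlapped in this group, as did FH and SUCLA2. With either SNHG1 hairpin the first 5 enzymes kept their places and IDH2 came last, at 17.2 ± 0.938 FPKM in shSNHG1#1 and 16.4 ± 1.97 in shSNHG1#2. IDH2 then overlapped SUCLA2, its neighbour, at 17.3 ± 1.14 and 16.6 ± 1.22 FPKM. IDH3A stood at 26.4 ± 0.918 and 26.3 ± 0.630 FPKM in these groups, clear of IDH2 in every library. Summed over the 9, the mean level was 269.3 FPKM in shNC, 368.6 in shSNHG1#1 and 352 in shSNHG1#2.

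The hairpins were then compared with each other, which tests whether their effects differ. None of the 9 enzymes passed this test by edgeR, where 3.12% of all features did, 2% being higher and 1.12% lower in shSNHG1#2, with 10.7% lying wholly above and 10.1% wholly below. Library totals alone gave 74.8% of the calls between the hairpins as higher, against 64% here. Every estimate was below 0, from -0.02 for IDH3A to -0.16 for FH, with a median of -0.08 beside -0.00179 over all features. CS (-0.13, 95% interval -0.20 to -0.05), FH (-0.16, -0.29 to -0.03), SDHA (-0.07, -0.14 to -0.01) and MDH2 (-0.07, -0.15 to -0.001) had an unadjusted p below 0.05, at 0.00379, 0.0225, 0.0374 and 0.0464, and adjusted p of 0.088, 0.21, 0.28 and 0.31 by edgeR. DESeq2 called 1 of the 9, CS, at -0.12 with adjusted p = 0.0139. The other intervals ran from -0.10 to 0.06 for IDH3A, -0.12 to 0.02 for OGDH, -0.21 to 0.02 for SDHB, -0.23 to 0.10 for SUCLA2 and -0.28 to 0.05 for IDH2. For 4 of the 9, all shSNHG1#2 libraries lay below all shSNHG1#1 libraries on the log2 CPM scale.

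**Figure D2:**
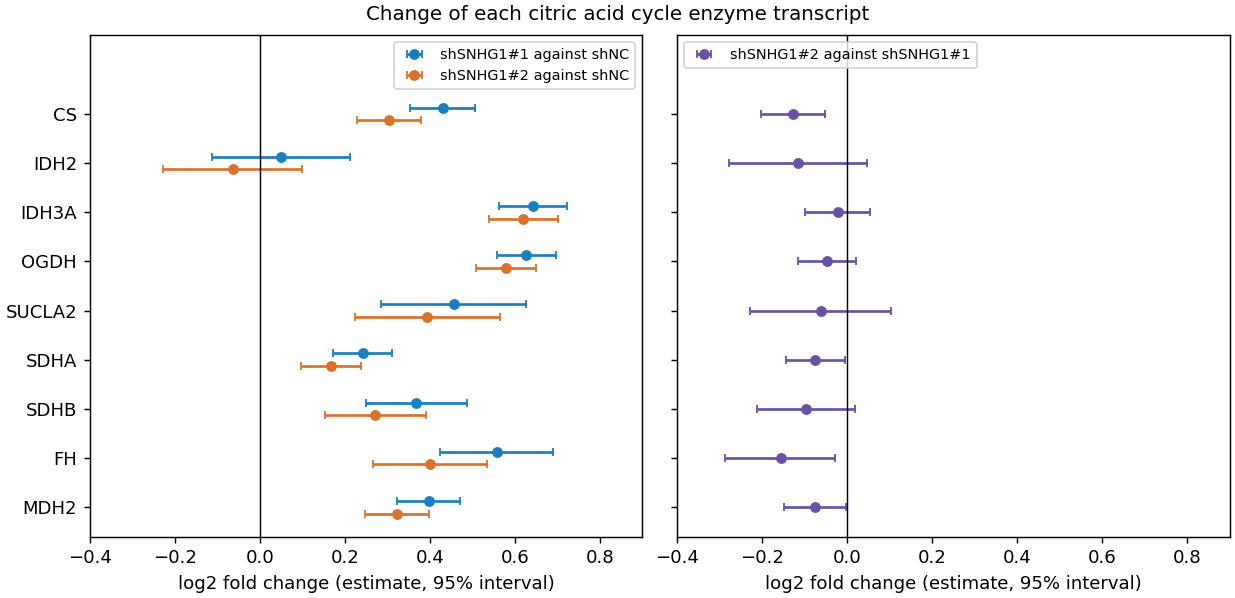
Log2 fold change (horizontal axis) of each enzyme with its 95% interval, against shNC for both hairpins on the left and between the hairpins on the right. IDH3A and OGDH lie farthest from 0 on the left, IDH2 is the enzyme whose intervals cover 0 with both hairpins, and on the right the estimates run from -0.16 to -0.02.

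Promoter sequence of the enzymes that rose is shown because several members moved together, and it lets their upstream letters be read side by side. The windows are the 250 bases before the annotated start in RefSeq (GRCh38.p14), read 5′ to 3′ on the strand of the gene. Of the 9 enzymes 8 had an entry and OGDH had none. The IDH2 window lies inside its gene and was not used, which leaves 7. The motifs searched on both strands were the NRF1 motif, the ETS core (CCGGAAG), the oestrogen-related receptor site (AAGGTCA), the hypoxia response cores (ACGTG and GCGTG), the E-box (CACGTG, which contains ACGTG) and the SP1 box (GGGCGG). Capitals mark matches to the ETS core, the receptor site or GCGTG, or the reverse complement. IDH3A (chr15:78149112-78149361, plus strand) is shown as the largest riser, SUCLA2 (chr13:48001274-48001523, minus strand) and SDHB (chr1:17054033-17054282, minus strand) for the receptor site, and MDH2 (chr7:76047856-76048105, plus strand) as the most abundant, with a repeated ETS core.
IDH3A: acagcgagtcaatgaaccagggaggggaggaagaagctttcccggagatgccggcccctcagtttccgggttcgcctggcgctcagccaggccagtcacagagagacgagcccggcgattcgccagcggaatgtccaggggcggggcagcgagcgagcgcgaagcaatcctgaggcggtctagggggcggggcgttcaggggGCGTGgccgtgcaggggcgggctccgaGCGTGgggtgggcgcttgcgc
SUCLA2: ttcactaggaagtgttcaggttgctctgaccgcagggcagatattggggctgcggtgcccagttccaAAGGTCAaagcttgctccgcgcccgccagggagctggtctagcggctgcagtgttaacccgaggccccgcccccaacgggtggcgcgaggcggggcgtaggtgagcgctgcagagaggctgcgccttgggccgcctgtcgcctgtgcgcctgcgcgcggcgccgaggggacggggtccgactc
SDHB: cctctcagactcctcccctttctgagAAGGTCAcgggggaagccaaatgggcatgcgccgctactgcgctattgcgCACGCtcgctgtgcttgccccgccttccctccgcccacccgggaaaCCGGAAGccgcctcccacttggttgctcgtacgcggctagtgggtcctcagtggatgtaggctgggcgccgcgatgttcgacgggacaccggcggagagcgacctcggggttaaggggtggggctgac
MDH2: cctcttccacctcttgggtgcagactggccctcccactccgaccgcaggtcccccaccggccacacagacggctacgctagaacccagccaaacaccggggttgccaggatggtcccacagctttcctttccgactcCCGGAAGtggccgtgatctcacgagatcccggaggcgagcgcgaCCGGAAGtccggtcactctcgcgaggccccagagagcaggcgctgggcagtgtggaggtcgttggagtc

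The 7 windows were kept only where they lay at the gene start, while the RefSeq windows set beside them were not limited in this way. The shares and the median GC content over all windows are thus from an unlike set. The receptor site AAGGTCA was in 2 of the 7 windows, SUCLA2 and SDHB, and in 3.44% of 35116 RefSeq promoter windows of the same length. The ETS core was in 2, SDHB and MDH2, against 8.52% of all windows, and MDH2 held it at 113 to 107 and again at 69 to 63 bases before the start. GCGTG was in 4, IDH3A, SDHA, SDHB and FH, against 32.2%, and the SP1 box in 5, CS, IDH3A, SUCLA2, SDHB and FH, against 42.6%. No window held the NRF1 motif (1.03% of all), ACGTG (18.5%) or the E-box (6.34%). GC content was 75.2% for SDHA, 70% for IDH3A, 69.2% for SUCLA2, 67.6% for CS, 66.4% for SDHB, 66% for MDH2 and 53.6% for FH, beside a median of 58% over all windows. A match describes letters only, and binding at these windows was not measured.

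The 10 other subunits and enzymes of the cycle had medians nearer to 0 than the 9. With shSNHG1#1, 6 were higher and none lower, with a median log2 fold change of 0.18. With shSNHG1#2, 4 were higher and 1 lower, with a median of 0.07. For this list and those below, the shares over all features were 24.5% and 23.3% higher and 23.5% and 22.8% lower. DLD, the lipoamide dehydrogenase shared by the oxoglutarate and pyruvate complexes, rose from 9.28 ± 1.36 FPKM in shNC to 13.1 ± 1.18 in shSNHG1#1 and 13.2 ± 1.03 in shSNHG1#2 (SD, n = 3; log2 0.48 and 0.50, adjusted p = 0.00057 and 0.00051 by edgeR). SUCLG1, the alpha subunit that pairs with SUCLA2, rose from 28.1 ± 0.200 to 33.7 ± 0.690 and 33.3 ± 1.85 FPKM (0.24 and 0.21, adjusted p = 0.001 and 0.0029).

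With each hairpin, the estimates of the other subunits were nearer to 0 than those of the 9 in the same complex. DLD (log2 0.48 and 0.50) still lay farther from 0 than CS (0.43 and 0.30), an enzyme outside its complex. Of the membrane anchors of succinate dehydrogenase, SDHC passed with shSNHG1#1 (log2 0.20, adjusted p = 0.00031 by edgeR) and not with shSNHG1#2 (0.07, 0.089). SDHD passed with both (0.19 and 0.15, adjusted p = 0.016 and 0.039), but with shSNHG1#1 the call was lost without shNC replicate 2 (0.0807) or shSNHG1#1 replicate 1 (0.0796). With shSNHG1#2 it was lost without any single shNC library (0.0715, 0.174 and 0.071 for replicates 1, 2 and 3) or shSNHG1#2 replicate 2 or 3 (0.104 and 0.106). DLST, the succinyltransferase core of the oxoglutarate complex, had 0.10 (adjusted p = 0.027, up to 0.187 when 1 library was left out) and 0.08 (0.075). The partners of IDH3A did not pass with either hairpin: IDH3B had 0.17 and 0.06 (adjusted p = 0.18 and 0.68) and IDH3G had 0.03 and 0.03 (0.74 and 0.75). SUCLG2, the GDP-forming alternative to SUCLA2, had 0.06 and 0.01 (0.25 and 0.85). MRPS36, an adaptor subunit of the oxoglutarate complex, had -0.19 (0.11) and -0.25 (0.044), and the second call was lost without shNC replicate 1 (0.113) or 3 (0.104), shSNHG1#1 replicate 3 (0.0535) or shSNHG1#2 replicate 1 (0.0951) or 2 (0.144). The count of 5 called with shSNHG1#2 fell to 3 without shNC replicate 1, shNC replicate 3 or shSNHG1#2 replicate 2. It also fell to 3 by DESeq2 and by edgeR with no filter. With shSNHG1#2, SDHD lost its call by DESeq2 (0.0591), no filter (0.0667) and the replicate block (0.0558). MRPS36 lost it by DESeq2 (0.0805), library totals (0.131), no filter (0.0653), a fit of 2 groups (0.0611) and limma (0.11 and 0.105). DLST with shSNHG1#1 lost it by DESeq2 (0.0655), no filter (0.0816) and a fit of 2 groups (0.0738).

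Ratios within a library do not depend on its scaling, but a ratio of FPKM depends on the transcript length used. For IDH2 that length differed between groups, as given above, and its ratios carry this difference. The implied length also differed from shNC with both hairpins for other genes, among them ACO1, PDK3, SLC25A10 and PPARGC1B, given below. Their FPKM levels and their folds on counts thus differ in size. The log2 ratio of IDH2 to IDH3A differed from shNC by -0.74 with shSNHG1#1 and -0.807 with shSNHG1#2 on FPKM. On counts the log2 fold changes were 0.05 and -0.06 for IDH2 and 0.64 and 0.62 for IDH3A. The ratio of IDH2 to IDH3A in FPKM was 1.09 ± 0.0643 in shNC, 0.654 ± 0.0357 in shSNHG1#1 and 0.627 ± 0.0902 in shSNHG1#2 (SD, n = 3). The ratio of OGDH to DLST was 0.488 ± 0.0319, 0.686 ± 0.0215 and 0.649 ± 0.0238. The ratio of SUCLA2 to SUCLG2 was 0.567 ± 0.0459, 0.744 ± 0.0331 and 0.729 ± 0.0404. In each of these pairs the shNC libraries did not overlap those of either SNHG1 hairpin. The ratio of SUCLA2 to SUCLG1, its partner, was 0.431 ± 0.0422, 0.512 ± 0.0402 and 0.497 ± 0.0399. There shNC (up to 0.456) overlapped shSNHG1#2 (from 0.453), and no permutation test was run. The ratio of SDHA to SDHB was 0.763 ± 0.0413, 0.697 ± 0.0280 and 0.716 ± 0.0301, and its groups overlapped. Two-sided exact permutation tests of the log2 ratios gave p = 0.1 for the first 3 ratios and for IDH1 to IDH2 with either hairpin, the smallest that 3 libraries against 3 allow, and 0.2 for SDHA to SDHB. Over the 10 such comparisons made, the adjusted values of these permutation tests were 0.125 and 0.2.

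**Figure D3:**
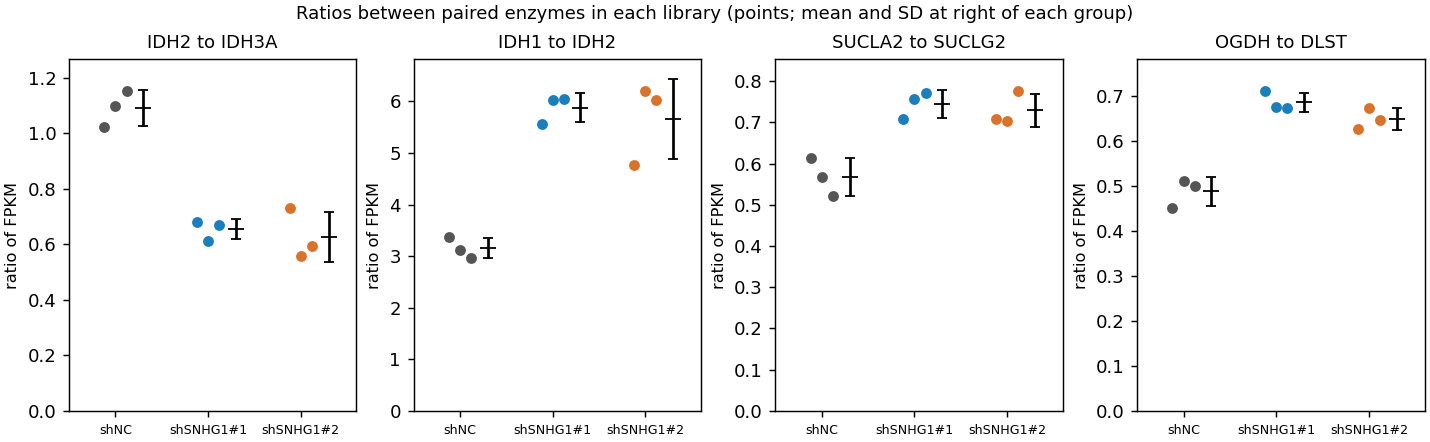
Ratio of FPKM (vertical axis, linear from 0) in each library for IDH2 to IDH3A, IDH1 to IDH2, SUCLA2 to SUCLG2 and OGDH to DLST, by hairpin; points are libraries, and the dash and bars are the mean and SD (n = 3). IDH2 to IDH3A is at 1.09 in shNC and at 0.654 and 0.627 with the SNHG1 hairpins, while the other 3 ratios are higher with both hairpins. The transcript length behind the FPKM of IDH2 differs between the groups.

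Enzymes with the same chemistry outside the cycle rose as well. All 4 tested were higher with each hairpin, with medians of 0.55 and 0.42 on the log2 scale. IDH1, the cytosolic NADP-dependent isocitrate dehydrogenase, rose from 55.2 ± 0.944 FPKM to 101.1 ± 1.75 and 92.1 ± 2.66 (fold 1.75 and 1.59, adjusted p = 1.7e-09 and 9.9e-09 by edgeR), and the ratio of IDH1 to IDH2 went from 3.15 ± 0.198 to 5.88 ± 0.276 and 5.66 ± 0.778. ACO1, cytosolic aconitase and an iron-responsive RNA-binding protein, rose from 9.32 ± 0.133 to 20.7 ± 0.356 and 16.6 ± 0.535 FPKM (fold 1.90 and 1.48, adjusted p = 2.5e-08 and 1.5e-06). Between the hairpins, 2 of the 4 were called lower in shSNHG1#2: ACO1, by a log2 of -0.35 (adjusted p = 0.00091 by edgeR), and IDH1, by -0.14 (0.011). The IDH1 call was lost without shSNHG1#1 replicate 3 (0.0735) or without shSNHG1#2 replicate 1, 2 or 3 (0.0529, 0.0582 and 0.0531). MDH1, the cytosolic malate dehydrogenase, rose 1.22-fold and 1.15-fold, and DHTKD1, a mitochondrial relative of OGDH that acts in lysine breakdown, 1.2-fold with both. OGDHL, a paralog of OGDH, did not reach the count filter.

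Of the 4 assembly factors of succinate dehydrogenase, 3 were higher with shSNHG1#1 and 2 with shSNHG1#2, and none was lower (medians 0.44 and 0.24). SDHAF1, which helps to insert iron-sulphur clusters into SDHB, had log2 fold changes of 0.33 and 0.36 (adjusted p = 0.0066 and 0.0041 by edgeR). SDHAF4, which acts on flavinylated SDHA, had 0.55 and 0.42 (0.0036 and 0.017). The SDHAF4 call with shSNHG1#2 was lost without shNC replicate 1 (0.0714) or shSNHG1#2 replicate 1 (0.0686), which left 1 of the 4 called.

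The 14 genes of pyruvate entry split in direction. With shSNHG1#1, 7 were higher and 4 lower (median log2 0.27), and with shSNHG1#2, 8 were higher and 4 lower (0.32). PDK1, a kinase that inhibits pyruvate dehydrogenase, fell most, from 18.4 ± 1.07 FPKM to 2.92 ± 0.0764 and 3.67 ± 0.468, which is 6.56-fold and 5.20-fold lower (adjusted p = 3.5e-10 and 9.5e-10 by edgeR). The 3 other kinases of this family, named after their values were seen, went in different directions. PDK4, the most abundant, rose from 86.5 ± 0.478 FPKM to 105.6 ± 3.92 and 124.4 ± 1.36 (log2 0.24 and 0.45, adjusted p = 6.6e-05 and 5.4e-07). PDK2 rose as well (0.35 and 0.31, adjusted p = 0.0011 and 0.0022 by edgeR), and PDK3 was lower on counts (-0.19 and -0.37, adjusted p = 0.0053 and 8.1e-05). In FPKM, PDK3 was at 7.37 ± 0.116 in shNC, 4.31 ± 0.557 in shSNHG1#1 and 3.90 ± 0.255 in shSNHG1#2. Its implied length was 5217 to 5707, 7433 to 9234 and 7880 to 9178 bases in these groups. PC, pyruvate carboxylase, which refills oxaloacetate, was 1.34-fold and 1.36-fold lower (adjusted p = 9.7e-06 and 6.9e-06). On the side that rose, PDHX, a structural subunit of the pyruvate dehydrogenase complex, was 1.31-fold and 1.45-fold higher, and DLAT, its acetyltransferase core, 1.34-fold and 1.27-fold higher.

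Of 18 genes that supply or withdraw intermediates, 10 were higher and 2 lower with shSNHG1#1 (median 0.23), and 9 higher and 2 lower with shSNHG1#2 (0.18). SLC25A10, the mitochondrial dicarboxylate carrier, rose from 4.75 ± 0.483 FPKM to 10.9 ± 0.598 and 9.97 ± 0.522 (fold 1.92 and 1.71, adjusted p = 5.9e-07 and 3.2e-06 by edgeR). GOT2, the mitochondrial aspartate aminotransferase, rose 1.44-fold and 1.37-fold (adjusted p = 2.4e-07 and 9.6e-07), and ALDH5A1, which makes succinate from the GABA shunt, 1.29-fold and 1.33-fold (0.0037 and 0.0018). GOT1, the cytosolic counterpart of GOT2, was 1.80-fold and 1.73-fold higher (adjusted p = 0.013 and 0.019). The GOT1 call was lost with shSNHG1#1 without its replicate 2 (0.0584), and with shSNHG1#2 without shNC replicate 1 (0.0625) or 3 (0.0726) or its own replicate 1 (0.0644) or 2 (0.0619).

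General regulators of mitochondria did not move one way. Of 12 regulators, 3 were higher and 4 lower with shSNHG1#1 (median log2 0.02), and 4 higher and 4 lower with shSNHG1#2 (-0.04). Among all features tested, 24.5% were higher and 23.5% lower with shSNHG1#1, and 23.3% and 22.8% with shSNHG1#2, so features in general split in a like way. The 8 called with shSNHG1#2 became 5 without shNC replicate 1 or 3 or shSNHG1#2 replicate 1. PPARGC1B, a coactivator of mitochondrial gene expression, was 2.22-fold and 2.03-fold higher from a low level (0.503 ± 0.0289 FPKM in shNC; adjusted p = 3.6e-06 and 1.1e-05 by edgeR). ESRRA, an oestrogen-related receptor, had 0.35 and 0.25 on the log2 scale (0.0067 and 0.035). NRF1, whose motif was also searched, was named after its values were seen. It was lower, at 3.88 ± 0.101 FPKM in shNC, 3.38 ± 0.38 in shSNHG1#1 and 3.16 ± 0.173 in shSNHG1#2. The NRF1 calls were lost with the replicate block (adjusted p = 0.0608 and 0.079 by edgeR). Whether ESRRA or NRF1 acts on the cycle enzymes was not tested. The ESRRA call with shSNHG1#2 was lost without shNC replicate 1 (0.113) or 2 (0.119) or shSNHG1#2 replicate 1 (0.133) or 2 (0.0699). SIRT5, a mitochondrial desuccinylase, and LONP1, a matrix protease, were lower with both hairpins, at -0.56 and -0.41 and at -0.23 and -0.32.

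Of 14 genes used as a gauge of mitochondrial content, 8 were higher and 2 lower with shSNHG1#1 and 7 higher and 2 lower with shSNHG1#2, with medians of 0.15 and 0.05. Over all features, 24.5% and 23.3% were higher and 23.5% and 22.8% lower. The summed mean level of the 14 was 1304 FPKM in shNC, 1525 in shSNHG1#1 and 1442 in shSNHG1#2. By this sum the shNC libraries did not overlap those of either SNHG1 hairpin. CYCS, cytochrome c, was 1.4-fold and 1.34-fold higher, HSPE1, a matrix co-chaperone, 1.45-fold and 1.26-fold, and TOMM40, the outer membrane import channel, 1.34-fold and 1.23-fold. VDAC2, an outer membrane channel, fell from 163.1 ± 5.39 FPKM to 129.4 ± 1.23 and 128.1 ± 5.48 (adjusted p = 1.5e-05 and 1e-05 by edgeR). Whether mitochondrial content has a part in the rise of the cycle enzymes was not tested.

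**Figure D4:**
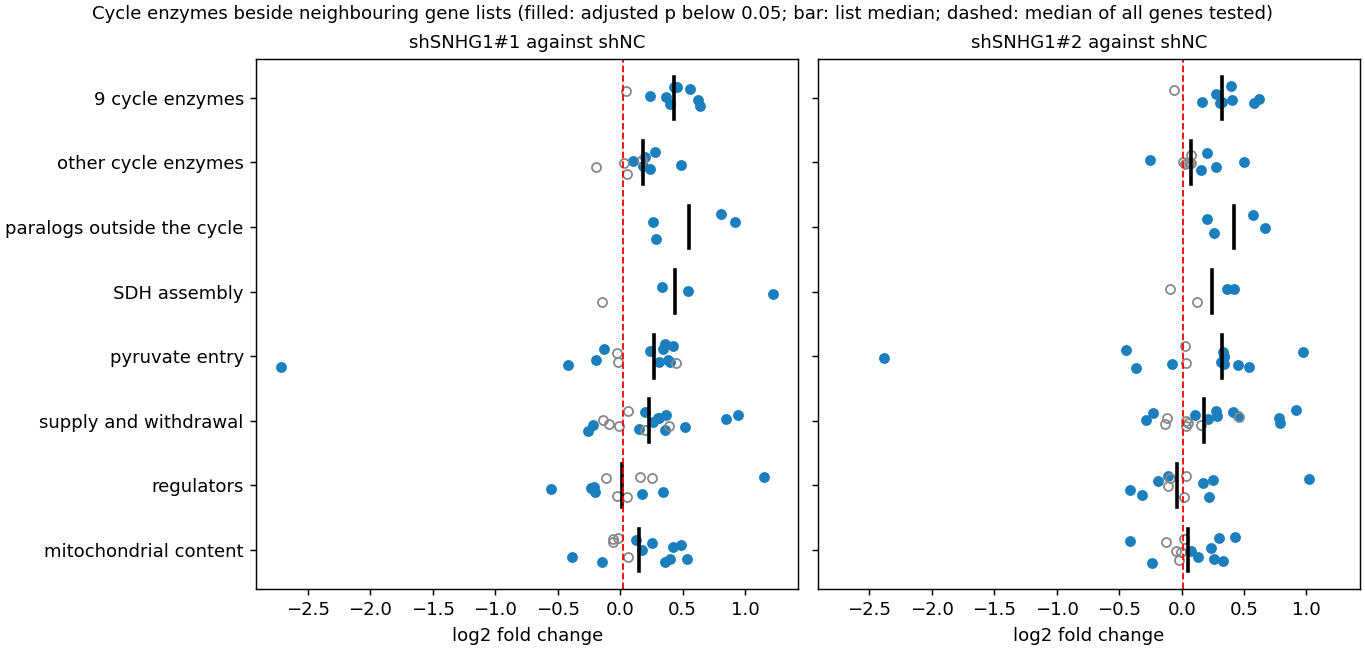
Log2 fold change against shNC (horizontal axis) of every tested gene of the 9 cycle enzymes and 7 neighbouring lists, for shSNHG1#1 on the left and shSNHG1#2 on the right; filled points have an adjusted p below 0.05, the bar is the median of the list and the dashed line that of all features tested. The median of the 9 is at 0.43 and 0.32, that of the other cycle enzymes at 0.18 and 0.07, and PDK1 is the point at the far left.

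Markers of other cell types were summed in each library. The 6 immune markers summed to 272 to 290 FPKM in shNC, 89.0 to 96.5 in shSNHG1#1 and 125 to 128 in shSNHG1#2, nearly all of it CD68, while PTPRC and CD3E stayed below 1 FPKM in every library. CD14 went the other way, from 1.86 ± 0.206 FPKM in shNC to 3.41 ± 0.542 in shSNHG1#1 (log2 0.84, adjusted p = 0.00095 by edgeR), and was at 2.38 ± 0.181 in shSNHG1#2 (0.29, adjusted p = 0.15). The 7 other retinal markers summed to 797 to 806, 513 to 542 and 525 to 544 FPKM, most of it VIM. Of the 6 tested, 1 was called higher and 2 lower with each hairpin. PAX6 went against the sum, at 0.347 ± 0.181 FPKM in shNC, 0.843 ± 0.0569 in shSNHG1#1 and 1.03 ± 0.171 in shSNHG1#2. Fibroblast markers summed to 1.75 to 2.89 FPKM in shNC, to 20.4, 3.21 and 3.23 in shSNHG1#1 replicates 1, 2 and 3, and to 2.80 to 2.93 in shSNHG1#2. Among them COL1A1 was called higher with both hairpins, from 1.25 ± 0.0265 FPKM to 2.88 ± 0.552 and 2.71 ± 0.112 (log2 1.18 and 1.06). Endothelial markers summed to 2.35 to 2.77 FPKM in shNC, to 6.14, 1.42 and 1.08 in shSNHG1#1 and to 1.53 to 4.90 in shSNHG1#2. Replicate 1 of shSNHG1#1 thus stood apart in both, and the endothelial ranges overlapped between groups. Without that library the 8 risen enzymes kept their calls with each hairpin. The part of these markers in the values of the cycle enzymes was not tested.

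Among 12794 genes at or above a mean of 2 on the log2 CPM scale, the 5 whose pattern over the 9 libraries was nearest to that of IDH3A included CDCA7, GPX8, GLCE and ZC3HAV1. The root mean square differences of these 4 from IDH3A in centred log2 CPM were 0.0379, 0.0394, 0.0406 and 0.0413. Their log2 fold changes lay between 0.57 and 0.67 with shSNHG1#1 and between 0.56 and 0.63 with shSNHG1#2. None of the 9 cycle enzymes was among the 5 nearest.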

How the data were processed

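RNA was sequenced from 9 libraries in 3 groups of 3. Estimated counts, which need not be whole, and an expression value were deposited by the authors for 27407 features in each library, per the file headers. The expression values are taken as FPKM made by the authors, from their relation to counts and length. The submitters' processing notes list, with no role, the tools HISAT2 2.0.4, Bowtie2 2.2.5, DESeq2 1.4.5 and RSEM 1.2.12. The sources used here do not state the genome build, annotation or strand setting, so genes that overlap or have close copies are measured with less certainty. Columns were matched to samples by the hairpin and replicate in their names.

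The counts, rounded, were tested in R 4.3.3 by the quasi-likelihood F test of edgeR 4.0.16, with TMM scaling and all 9 libraries in a model of group alone. filterByExpr kept 18767 features, all 9 enzymes among them, and Benjamini-Hochberg adjustment ran over these, at 0.05. The median biological coefficient of variation was 7.28%. Standard errors derive from the F statistic, and levels are mean ± SD of FPKM. The scripts were tested on simulated data. Alternatives were DESeq2 1.42.0, limma 3.58.1 on log2(FPKM + 1) and log2(FPKM + 0.1), other scalings, no filter, fits of 2 groups, libraries left out, a replicate block and, added after seeing the data, features without a symbol left out.

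The enzymes and lists were chosen with earlier results of these data known. All 9 enzymes are named. Of every other list, the rule takes up to 4 genes called with both hairpins in 1 direction, largest mean change first, above a floor of 2 in mean log2 CPM, plus all uncalled genes of the other cycle enzymes and all SDHA pseudogenes. A few genes that the rule takes are not reported here. Marker genes of other cell types were named after their values were seen.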

Additional observations from a re-analysis of the deposited data

How the results depend on the processing

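The 8 risen enzymes kept their calls with each hairpin in all 18 alternatives, with adjusted p of at most 0.00962 (edgeR, limma or DESeq2). IDH2 passed in none. Its estimate turned with shSNHG1#1 to -0.025 and -0.026 by limma on log2(FPKM + 1) and log2(FPKM + 0.1) and, leaving out 1 library, ranged from -0.006 (without shSNHG1#1 replicate 1) to 0.084. With shSNHG1#2 it ran from -0.157 to 4e-04, the latter under library totals, and its lowest adjusted p was 0.0603 (edgeR, limma or DESeq2). Without shSNHG1#2 replicate 1, all 9 enzymes, IDH2 among them, had an unadjusted p below 0.05 with shSNHG1#2 by edgeR. Between the hairpins, DESeq2 called 1 enzyme (CS) against 0, and 959 features against 586. Fitting the compared groups alone gave 386, and leaving out 1 library gave 297 to 534. The lowest, 297, was without shSNHG1#2 replicate 2, and 351 and 349 were called without shSNHG1#1 replicate 3 and shSNHG1#2 replicate 3. With limma on the same scales PDPR turned to 0.007 and 0.008 and PPRC1 to 0.009 and 0.009 with shSNHG1#2. Over the settings for called genes of the other lists, 1861 values kept direction and side, 169 lost the threshold and 4 turned. The cause was not tested. With 3 libraries a group, their number limits the precision.

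Same-numbered libraries share only a number: over 9 pairs their deviations correlated at -0.0361 to 0.0322, and 4 of 9 libraries correlated best with their own number. With the replicate block, 8752, 8421 and 433 features were called in the 3 comparisons, against 9023, 8669 and 586, and 8, 8 and 0 of the 9 enzymes.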
